A study of Mus musculus with 12 samples.

Results

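Of the 138649 bases listed as carrying 5-formylcytosine (5fC) on the 19 autosomes of Tdg knockout mouse embryonic stem cells, 5894 stood alone. These isolated single sites had no other listed knockout site, and no listed site of the control cells, within 10000 bases on either side. They made up 4.25% of the autosomal knockout sites (exact Clopper-Pearson 95% interval 4.15% to 4.36%). Both lists together hold 171712 sites, X and unplaced sequence included. The distances between listed positions chose these sites, so their number, share and spacing are given as a description, without a test.

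5fC arises when TET enzymes oxidise 5-methylcytosine by way of 5-hydroxymethylcytosine. TDG is a DNA glycosylase that cuts out 5fC and 5-carboxylcytosine, and base excision repair then restores an unmodified cytosine. In embryonic stem cells this turnover is known for acting at regulatory elements such as enhancers, and without TDG the oxidised bases accumulate. Most 5-methylcytosine in mouse DNA lies in CpG dinucleotides, where the cytosines of both strands are neighbours, so 5fC on both strands of a CpG gives listed positions 1 base apart.

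The knockout cells were Tdg -/- and the control cells Tdg fl/fl, which carry floxed alleles. Both are mES lines of strain C57BL/6-ICR, grown without feeder cells in serum and LIF. For each genotype the labels give 2 biological replicates of pull-down output, in which 5fC was tagged with an azido indandione, coupled to biotin, captured on streptavidin and read as T, with labelled and unlabelled inputs beside them. The measurements used here are 1 list of positions per genotype on the mm9 build, holding 138649 knockout and 32614 control sites on the autosomes. The lists give no strand, read depth, 5fC level, score or replicate, so the spread between replicates cannot be given and no difference between genotypes has a replicate check. A base that is not listed is not shown to lack 5fC, and "alone" means alone in these lists. Whether positions count from 0 or from 1 is not given in the sources used here, so they are printed as listed. An annotation or genome of the mm9 build was not used here, so genes, CpG context and sequences at the sites were not analysed here.

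Isolated single sites occurred on every autosome, and their density varied less between autosomes than that of all knockout sites. They averaged 2.48 ± 0.312 per Mb (SD over 19 autosomes, each measured from its first to its last listed site). All knockout sites together averaged 58.4 ± 13.8 per Mb. The densest autosome, chromosome 11, had 2.37 times as many knockout sites per Mb as the sparsest, chromosome 14 (92.6 against 39.1). Isolated sites differed by 1.59 times, from 2.05 per Mb on chromosome 14 (exact Poisson 95% interval 1.80 to 2.32) to 3.27 on chromosome 19 (2.82 to 3.76). The coefficient of variation over autosomes was 12.6% for isolated sites and 23.6% for all knockout sites. Chromosomes with more sites leave less room for a site to stand alone, so the smaller variation follows in part from the rule. All intervals cover counting error only, and chromosomes are not replicates, since they come from the same libraries.

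As a share of each chromosome's knockout sites, isolated sites ranged from 3.02% on chromosome 11 (332 of 10989) to 5.76% on chromosome 13 (338 of 5867). The mean over autosomes was 4.40% ± 0.822 (SD, n = 19 autosomes). Chromosomes 4, 5, 15 and 17 were also low. Their shares were 3.36% (364 sites), 3.43% (356 sites), 3.51% (222 sites) and 3.57% (248 sites). With chromosome 11 these were the 5 autosomes whose 95% interval lay below the pooled share. The interval lay above it on 6 autosomes: chromosome 13, chromosome 3 with 5.58% (341 sites), chromosome 1 with 5.44% (456), chromosome 18 with 5.43% (228), chromosome 14 with 5.25% (250) and chromosome 16 with 4.91% (217). Between them lay 8 autosomes whose intervals included the pooled share. From low to high they were chromosome 7 with 3.94% (308 sites), chromosome 10 with 4.13% (325), chromosome 6 with 4.16% (339), chromosome 8 with 4.24% (313), chromosome 2 with 4.37% (465), chromosome 19 with 4.44% (190), chromosome 12 with 4.47% (261) and chromosome 9 with 4.58% (341). Neighbours in this order differed by less than their counting intervals.

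Chromosome 2 held the most isolated sites, 7.89% of all of them, and chromosome 19 the fewest, 3.22%. The isolated share was lower on chromosomes with more knockout sites per Mb. Across the 19 autosomes, which share libraries, Pearson's r was -0.83 and Spearman's rho -0.81. Without chromosomes 11 and 14, the 2 farthest from the median density, r was -0.79. The number of isolated sites per Mb went the other way, with r = 0.55 and rho = 0.59, and r = 0.46 without the same 2 chromosomes. Both correlations describe these lists, and the first is in part a consequence of the rule.

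**Figure D1:**
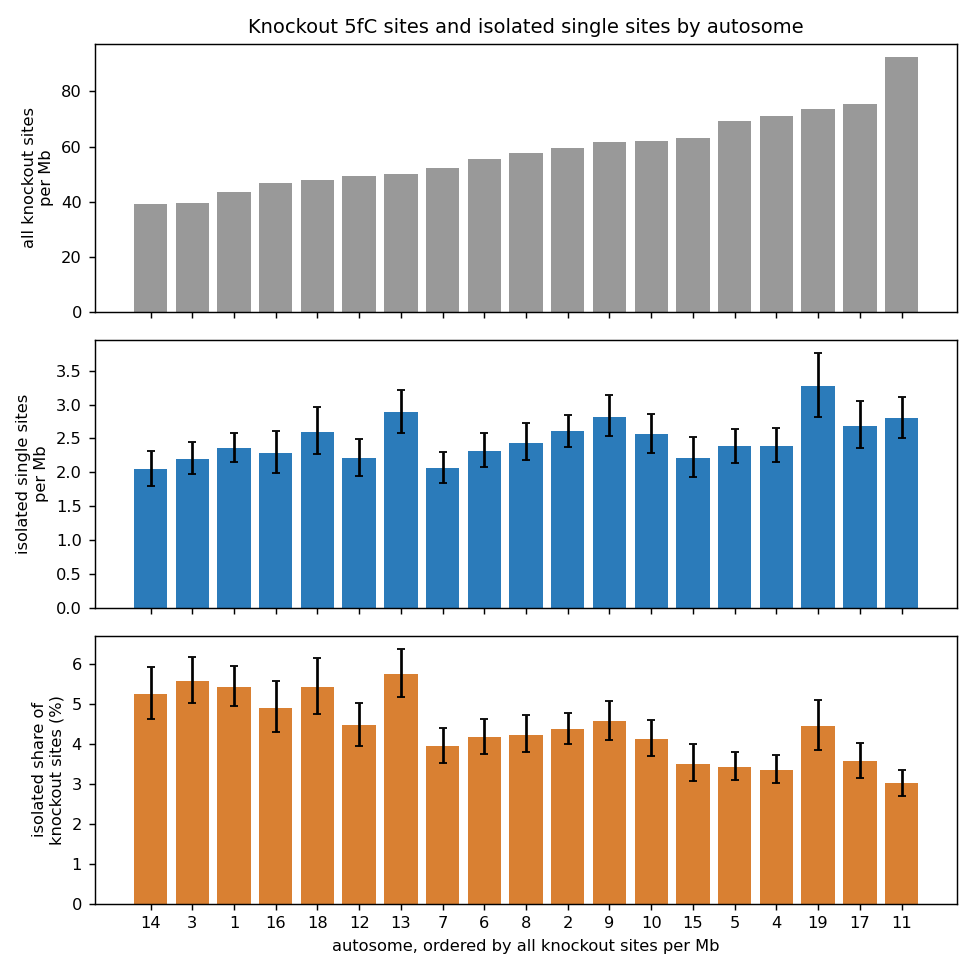
Knockout sites per Mb (top), isolated single sites per Mb with exact Poisson 95% intervals (middle) and isolated sites as a percentage of knockout sites with exact binomial 95% intervals (bottom) for each of 19 autosomes, ordered by knockout sites per Mb. Knockout density rises from 39.1 to 92.6 per Mb, while isolated sites stay between 2.05 and 3.27 per Mb.

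At the scale of 1 Mb, isolated sites were present in most windows where knockout cells had listed 5fC. Of 2294 windows of 1 Mb with a knockout site, 2020 (88.1%) held an isolated site. This share was 72.8% for windows with 1 to 9 knockout sites and 95.9% for those with 100 or more. Over the 2294 windows, the median was 2 isolated sites per window and the highest 12. An isolated site was the only one of its window in 502 windows, 1147 windows held 2 to 4, and 371 held 5 or more. In 130 windows every knockout site was an isolated one, and these windows held 212 isolated sites.

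Windows were then grouped by their number of knockout sites, in ranges chosen with these data known. The 569 windows with 1 to 9 knockout sites held 1.20 ± 1.05 isolated sites each (mean ± SD over windows), and 29.0% of their knockout sites were isolated. The 386 windows with 10 to 24 held 2.09 ± 1.53, or 13.0% of their sites. The 364 windows with 25 to 49 held 2.88 ± 1.88, or 7.96%. The number per window was 3.55 ± 1.93 in the 464 windows with 50 to 99 knockout sites and 3.34 ± 1.88 in the 511 windows with 100 or more, where the shares were 4.99% and 2.04%, so the number per window did not rise further in the richest class. The standard deviations of neighbouring classes overlap, but they describe the spread between windows and not the uncertainty of the means. Differences between the class means were not tested. The 511 richest windows contributed 29.0% of all isolated sites and 60.5% of all knockout sites. The windows with 1 to 9 knockout sites contributed 11.6% and 1.71%. Isolated sites were thus listed in regions rich in sites as well as in poor ones. Over the 2294 windows, which are not independent, the number of isolated sites and the number of knockout sites had r = 0.30 and rho = 0.48.

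**Figure D2:**
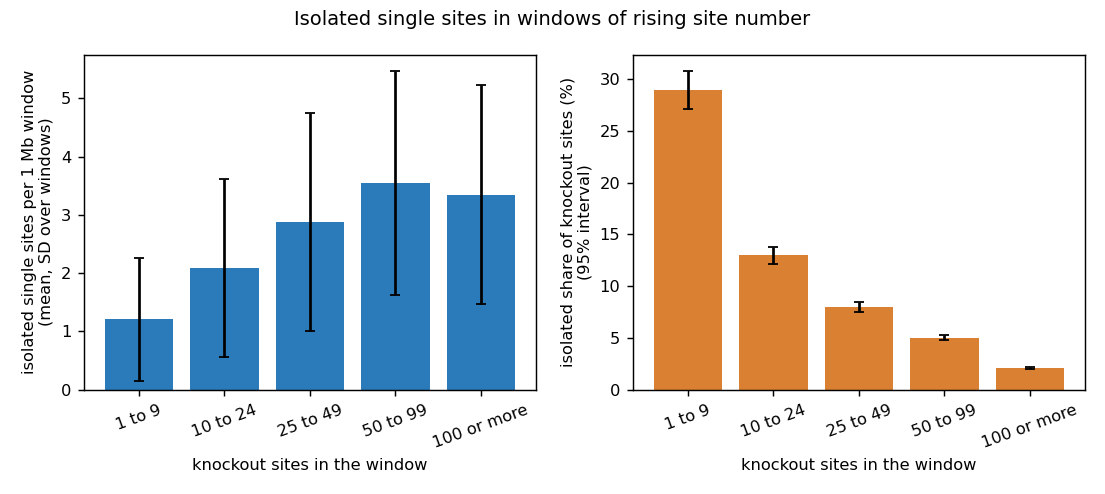
Isolated single sites per 1 Mb window (left, mean with SD over windows) and their share of the knockout sites (right, with exact binomial 95% intervals), for windows grouped by knockout site number. The mean rises from 1.20 to 3.55 and then stays level at 3.34, while the share falls from 29.0% to 2.04%.

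Chromosomes differed less once the density of their windows was taken into account. Each window was given the isolated share of its density class over all 19 autosomes. The listed number of isolated sites was 0.887 to 1.15 times the number so obtained (mean 1.01 ± 0.0800, SD over 19 autosomes). The coefficient of variation over autosomes was 7.96% for this ratio and 18.7% for the isolated share itself. The exact Poisson interval of this ratio included 1 on 17 autosomes. The exceptions were chromosome 13, with a ratio of 1.15 (1.03 to 1.28), and chromosome 7, with 0.887 (0.791 to 0.992). The density classes contain the isolated sites themselves, so this is a description and not a test.

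Along the chromosomes, isolated sites were spread more evenly than knockout sites as a whole. Parts with more sites leave less room for a site to stand alone, so the more even spread follows in part from the rule. Mouse autosomes have the centromere at the end with the lowest coordinates, and each autosome's span was divided into 10 equal parts from that end. The first part held 9.04% of isolated sites and 6.38% of all knockout sites, and the last part held 11.5% and 17.2%. Over the 10 parts the share of isolated sites ranged from 9.04% to 11.5%. Knockout sites as a whole ranged from 6.38% to 17.2%. The isolated share of knockout sites was 6.02% (95% interval 5.54% to 6.54%) in the first part and 2.85% (2.64% to 3.07%) in the last. The last parts are also the densest in knockout sites, and how far position adds to density was not tested.

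**Figure D3:**
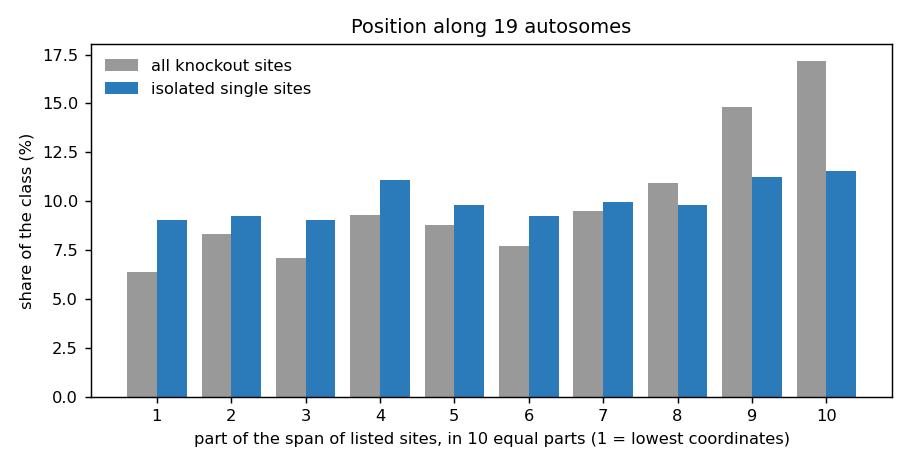
Percentage of all knockout sites and of isolated single sites in each of 10 equal parts of the span between the first and the last listed site, summed over 19 autosomes, with part 1 at the lowest coordinates. Knockout sites rise from 6.38% to 17.2% towards the high end, and isolated sites stay between 9.04% and 11.5%.

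The next knockout site lay at a median of 24.6 kb from an isolated site, with quartiles of 14.7 and 52.2 kb. The next control site lay at a median of 46.8 kb, with quartiles of 22.7 and 120.1 kb. By comparison, the median over all autosomal knockout sites to the nearest other knockout site was 0.087 kb. Fewer control than knockout sites were listed on the autosomes (32614 against 138649). The part of list length in these distances was not tested. A control site was the nearest listed neighbour ahead of any knockout site for 682 isolated sites (11.6%), and bases listed in control cells only were 11.95% of the 157474 distinct listed autosomal bases. The nearest listed site was on the side of lower coordinates in 48.8% of cases.

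Many isolated sites were only just isolated, and a smaller number were very far from any other. Within 20 kb of another listed site lay all but 3378 of them, so that 57.3% would also count as alone at 20 kb. At 50 kb 1462 (24.8%) were still alone, at 100 kb 706 (11.98%), at 500 kb 56 and at 1 Mb 14. Control cells had no listed site within 100 kb of 1712 isolated sites (29.0%). On the farther side, the next listed site was at a median of 65.3 kb. The whole stretch around an isolated site without another listed site had a median length of 94.1 kb and a 95th percentile of 864 kb, over the 5882 sites with neighbours on both sides. The other 12 were the first or the last listed site of an autosome.

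**Figure D4:**
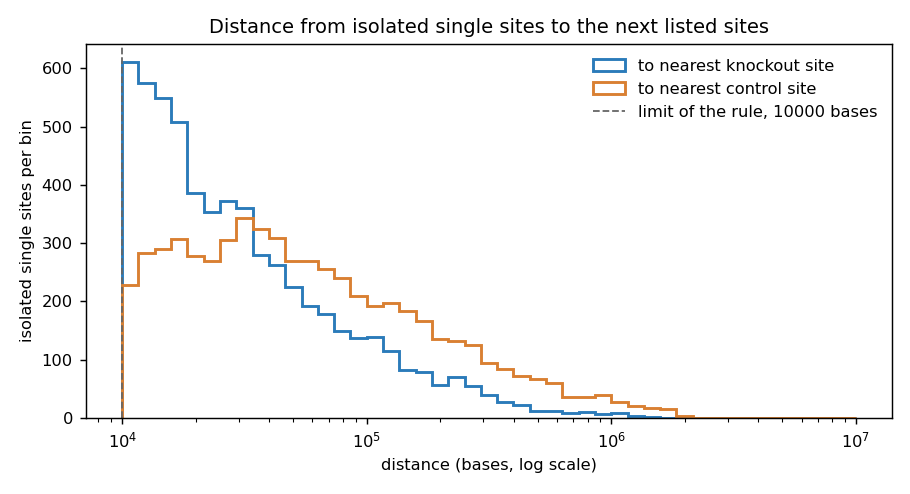
Number of isolated single sites by distance to the nearest knockout site and to the nearest control site, in bins of equal width on a log axis, with the limit of 10000 bases as a dashed line. Distances to knockout sites are most frequent at the limit, with a median of 24.6 kb, and distances to control sites are longer, with a median of 46.8 kb.

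Median distances differed by up to 1.99 times between chromosomes. The median distance to the next knockout site averaged 24.9 ± 3.96 kb (SD, n = 19 autosomes), from 17.9 kb on chromosome 19 to 35.5 kb on chromosome 3. The same 2 chromosomes were at the ends for the next control site, with medians of 36.7 and 64.3 kb (mean 48.0 ± 8.04 kb).

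The limit of 10000 bases fell within a smooth range of distances. There were 461 knockout sites whose nearest listed site lay 9001 to 10000 bases away, just outside the definition, and 386 at 10001 to 11000 bases, just inside it. The isolated sites closest to the limit were on chromosome 2 at 27999136, 10001 bases from its neighbour, on chromosome 12 at 78055917, also 10001 bases, and on chromosome 10 at 41840788, at 10002 bases from a control site. Just short of it were sites on chromosome 6 at 136916037 (9998 bases), on chromosome 1 at 74465778 (9995 bases) and on chromosome 11 at 113754409 (9993 bases).

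The most remote isolated site was on chromosome 4 at 78789367. Its nearest knockout site was 1563 kb away and its nearest control site 1839 kb. It was followed by a site on chromosome 5 at 70588741, with the nearest listed site at 1462 kb. Chromosome 7 held a pair of such sites, at 33344304 and at 21861919, which were 1345 and 1198 kb from any other listed site. The remaining site of the 5 most remote was on chromosome 16 at 53659925, at 1208 kb. In all 5 the nearest listed site was a knockout site. Genes and repeats around these 5 positions, and how well reads can be placed there, were not analysed here.

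Some isolated sites had another isolated site as their nearest knockout neighbour. The nearest knockout site of 1411 isolated sites (23.9%) was itself isolated, while isolated sites were 4.25% of knockout sites. For 3885 (65.9%) the nearest knockout site belonged to a group, meaning that it had further knockout sites within 10000 bases beyond an adjacent-base partner. Such sites were 93.0% of the knockout list. A lone site with a control site nearby was the neighbour in 6.89% of cases, and a lone adjacent-base pair in 3.26%. A group can be approached only from its ends, so sites within groups are seldom the nearest neighbour and these shares are not expected to match the list. An isolated site can have neither a partner on the adjacent base nor a match in control cells, so these were counted over the 4483 nearest knockout sites that were not isolated themselves. Of those, 14.3% had an adjacent-base partner, and 20.4% of all knockout sites that were not isolated had one. The same base was listed in control cells for 11.6% of the 4483 and for 10.4% of all knockout sites that were not isolated. The nearest site was a lone single site with a control site within 10000 bases in 406 of these 4483 cases, a class of 1956 sites in the whole list. By definition this class has no adjacent-base partner, and 31.5% of it was listed at the same base in control cells. Both differences are thus shaped in part by how the classes were made, and neither was tested.

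With both lists merged, 3549 isolated sites (60.2%) had no isolated site directly before or after them. The other 2345 (39.8%) stood in 994 runs of 2 or more isolated sites in a row. Of these runs, 743 had 2 sites, 180 had 3 and 46 had 4. The longest, with 7 sites each, were on chromosome 3 from 65716283 to 66250670, with gaps of 14.6 to 172 kb, and on chromosome 17 from 54018809 to 55734095, with gaps of 26.6 to 866 kb. There were 6 runs of 6 sites, and that on chromosome 2 from 80674222 to 83387549 covered 2713 kb. A run consists of isolated knockout sites only, so by definition control cells had no listed site in that stretch.

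The 5 windows of 1 Mb with most isolated sites held 54 to 186 knockout sites. Isolated sites are themselves knockout sites, so a window with many of them cannot be among the poorest in listed sites. The window on chromosome 6 from 39000000 to 39999999 had 12 isolated sites among 90 knockout and 16 control sites. Windows with 10 were on chromosome 2 from 135000000, with 54 knockout sites, and on chromosome 13 from 59000000, with 79. Windows with 9 were on chromosome 1 from 37000000, with 100 knockout sites, and on chromosome 9 from 62000000, with 186. The isolated share in these 5 windows ran from 4.84% on chromosome 9 to 18.5% on chromosome 2.

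Around isolated sites, the wider region held fewer knockout sites than around grouped ones, but it was seldom empty. Within 100 kb on either side, an isolated site had a median of 9 other knockout sites (quartiles 3 and 20), and a grouped site had 33 (19 and 54). Within 500 kb the medians were 60 and 128. No other knockout site lay within 100 kb of 753 isolated sites (12.8%), and none within 500 kb of 61. Part of this gap is set by the rule, which empties the innermost 10000 bases. Grouped sites have knockout neighbours by definition, and each site of a group was counted separately, so large groups weigh more in their medians.

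Whether lone sites were also listed in control cells can be asked only before control sites are used to choose them. The knockout list by itself has 7850 single sites with no other knockout site within 10000 bases. Of these, the 5894 isolated sites (75.1%, 95% interval 74.1% to 76.0%) had no control site within 10000 bases, and the other 1956 (24.9%) had one. The same base was listed in control cells for 616 of the 7850, or 7.85% (7.26% to 8.46%). For the 128999 grouped knockout sites this share was 10.0% (9.88% to 10.2%). The difference was -2.20 percentage points (normal 95% interval -2.81 to -1.58). The lone sites had the lower share on 18 of 19 autosomes, with chromosome 12 as the exception. Over autosomes the shares were 7.97% ± 1.56 and 10.0% ± 0.487 (SD, n = 19). This difference has no test, since sites share their libraries and neighbours and there is 1 list per genotype. Its interval covers counting error only.

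When a lone knockout site had a control site within 10000 bases, that control site was mostly very near. It was at the same base in 31.5% of the 1956 cases, within 100 bases in 60.2% and within 1000 bases in 87.6%. Among the 92882 grouped sites with a control site within 10000 bases, these shares were lower, at 13.9%, 35.0% and 62.2%. On this basis the lone sites had the higher share at the same base, while over all sites of each class they had the lower one. A distance of 1001 to 10000 bases was found for 242 sites, or 3.08% of all lone single sites. Among all grouped sites 27.2% had their nearest control site at that distance. Both shares count every site of the class, and 75.1% of lone single sites and 28.0% of grouped sites had no control site within 10000 bases. Several sites of a group can have the same control site nearby, so the shares of the grouped class are not a like-for-like background.

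Lone pairs of adjacent bases, as both strands of a CpG would give, were set beside lone single sites in their relation to the control list. The knockout list has 900 such pairs with no further knockout site within 10000 bases. No control site was within 10000 bases of 581 of them, or 64.6% (95% interval 61.3% to 67.7%), and the share for single sites was 75.1%. The rule used this value, so it is given as a description. Of the 1800 bases in these pairs, 12.1% (10.6% to 13.6%) were listed at the same base in control cells, against 7.85% of single sites. The bases of a pair are not independent, and no test was made. A pair offers a control site an adjacent base as well, and 10.3% of its bases had the nearest control site exactly 1 base away, against 1.83% of single sites. At 2 to 100 bases the shares were 5.33% and 5.31%. Single sites made up 91.0% (90.3% to 91.7%) of the 6475 lone places, single or paired, that had no control site nearby. Before control sites were used, the lone places were 7850 single sites and 900 pairs, so most were already single. In the whole autosomal knockout list 19.5% of sites had an adjacent-base partner.

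**Figure D5:**
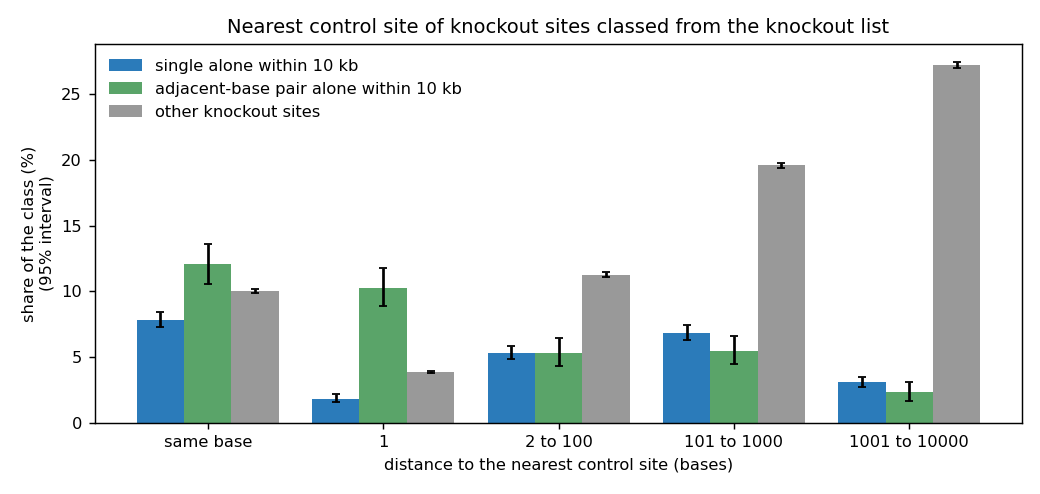
Percentage of knockout sites by distance to the nearest control site, for 7850 single sites alone within 10 kb in the knockout list, 1800 bases in lone adjacent-base pairs and 128999 other knockout sites, with exact binomial 95% intervals; sites with no control site within 10000 bases make up the rest of each class. Single sites share their base with a control site in 7.85% and have the nearest at 1001 to 10000 bases in 3.08%, against 10.0% and 27.2% of the other knockout sites.

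Median spacing beyond the limit was close for isolated single sites and for isolated pairs. The 581 pairs lay at a median of 24.2 kb from the next knockout site and 45.6 kb from the next control site, against 24.6 and 46.8 kb for single sites. The upper tails differed more, with 95th percentiles of 165 kb and 208 kb to the next knockout site. No test was made of these distances, which the rule used.

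Control cells had few sites of the same kind. With the lists exchanged, 719 control sites stood alone from both lists, which is 2.20% of the autosomal control sites (95% interval 2.05% to 2.37%). There were 8.20 isolated knockout sites for each of them (exact conditional interval 7.59 to 8.87), while the lists as a whole had a ratio of 4.25. The ratio was above that of the lists on all 19 autosomes, from 5.43 on chromosome 16 to 10.4 on chromosome 18. The longer knockout list leaves a control site less room to be alone, so this ratio depends on list length. Counting sites of the same list only, 10128 control sites (31.1%) and 7850 knockout sites stood alone, a ratio of 0.775 in the other direction. Isolated control sites had median distances close to those of isolated knockout sites, 22.8 kb to the next knockout site and 45.2 kb to the next control site. Read depth and the threshold for listing a site may differ between genotypes, and their part in these counts was not tested.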

How the data were processed

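The authors deposited 1 list of single-base 5fC positions per genotype (chromosome, start and end, with start equal to end in all 139027 knockout and 32685 control rows), and these positions carry no level or depth. Bismark 0.8.3, HOMER and mm9 appear in the submitters' processing notes with no stated role. The site-calling rule and any pooling of replicates were not given in the sources used here. Genotypes were taken from the lists' names.

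The analysis ran in Python 3.11.15 (scipy 1.17.1, numpy 2.4.6, matplotlib 3.10.9) on the autosomal positions. A site was isolated when the nearest other site of its list and the nearest site of the other list were both more than 10000 bases away. The code for the rule was checked on simulated lists, where it found 100% of 972 planted isolated sites and no others. This checks the code only and not how the listed sites were called. Shares have exact binomial 95% intervals, densities exact Poisson ones and ratios of counts exact conditional ones. No p-value was computed. Named positions follow fixed rules: the 5 most remote sites, the 3 longest runs, the 5 windows of 1 Mb with most isolated sites, and the 3 sites nearest to the limit on each side. Ties among runs and among windows were settled by order of chromosome and position. The definition, classes and rules were chosen with earlier results of these data known. Alternatives were other distances, joined adjacent bases, the X chromosome, isolation within 1 list and another density. Input libraries were not used here.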

Additional observations from a re-analysis of the deposited data

Results flagged for a closer look

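The autosomes alone entered the report. By the same definition, 91 of the 306 knockout sites on the X chromosome were isolated, or 29.7% (95% interval 24.7% to 35.2%), at 0.571 per Mb (exact Poisson interval 0.460 to 0.701). Their median distances were 168 kb to the next knockout site and 449 kb to the next control site. The X chromosome had 1.92 knockout sites per Mb in all, below every autosome. On the unplaced sequence of mm9, 6 of 72 knockout sites were isolated. Both counts were noted as signal outside the chromosomes compared, and distances on unplaced sequence need not be real distances.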

How the results depend on the processing

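Of 24 values under the 7 alternatives, 13 stayed within the counting interval of the main value or within 0.05 of the correlation. The isolated share of 4.25% became 6.50% with a distance of 5 kb, 2.44% with 20 kb, 1.05% with 50 kb, 5.17% with adjacent bases joined, and 5.66% when knockout sites alone were counted. Each of these follows from the construction of the alternative. The correlation of share with density was -0.76 with X included and otherwise stayed between -0.87 and -0.83. The difference in control match between lone and grouped sites kept its sign, and was -1.48 points at 50 kb and -1.32 points with adjacent bases joined. The ratio of isolated knockout to isolated control sites was 9.25 at 50 kb and 8.88 with adjacent bases joined. It reversed to 0.775 when each list was taken by itself, where the shorter list leaves more room between its own sites. No paired analysis was possible because each genotype has 1 list without replicates, and none could be left out. With read depth unknown, its effect on these counts was not measured.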
